A study of Arabidopsis thaliana with 12 samples.

Results

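Late embryogenesis abundant (LEA) genes were described through 7 members: M17 (AT2G41260), M10 (AT2G41280), AT3G22490, AT3G15670, AT2G42560, AT5G44310 and AT3G53040. A member was taken as the probe set, among the 22810 on the Arabidopsis ATH1 array, whose single gene in the platform annotation is that gene. Each of the 7 had 1 such probe set, among 13350 genes that have at least 1. All 7 passed the filter on dim probe sets, with high signal in every group, and belonged to the 13648 probe sets tested. The study compared mature Arabidopsis seed, collected from opened siliques of mother plants that differed in growth conditions or genotype, with 3 arrays in each of 4 groups.

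Reference seed came from wild-type Landsberg erecta (Ler) plants kept at 20 °C in 16 h days. Cool seed came from wild-type Ler plants that grew at 20 °C until flowering and at 10 °C after it, in 16 h days. Short-day seed came from wild-type Ler plants kept at 20 °C in 8 h days. Seed of ft-1, a late-flowering mutant allele in the Ler background, came from plants kept at 20 °C in 16 h days. The source name of the ft-1 samples reads Glabra, while their title and genotype read ft-1. The targeted gene was not analysed here, so the genotype was not checked against the arrays. The labels do not say that the 3 samples of a group came from separate plants, so the p-values measure the spread between these samples.

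LEA proteins are small, mostly hydrophilic proteins that accumulate in the embryo late in seed maturation, when the seed dries, and they are associated with desiccation tolerance. Many of their genes are switched on by abscisic acid and the transcription factors of the seed maturation programme, and their transcripts are stored in the dry seed. They fall into unrelated sequence families. Among the members, M17 and M10 belong to the AtM family. AT3G22490 belongs to the seed maturation protein (SMP) family. AT3G15670, AT2G42560, AT5G44310 and AT3G53040 belong to LEA_4, whose proteins carry a short repeated motif, are disordered in water and can fold into amphipathic helices on drying. M17 and M10 lie near each other on chromosome 2, with 1 annotated gene, the transcribed pseudogene AT2G41270, between them in the TAIR10.1 gene order. AT2G42560 is also on chromosome 2, AT3G22490, AT3G15670 and AT3G53040 are on chromosome 3 and AT5G44310 is on chromosome 5.

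Signals below are linear MAS5 intensities as deposited, on arrays that all have a 2% trimmed mean of 100. Changes are differences of mean log2 signal, tested with limma over the 12 arrays, with p-values adjusted over the 13648 tested probe sets and a threshold of 0.05. A signal depends on its probes, so no member's signal is set against another's. Arrays record RNA per amount of labelled RNA, so fewer cells of a type and less RNA per cell cannot be told apart.

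In cool seed the 7 members moved apart: the transcripts of 4 members rose and those of 3 fell against reference seed. M17 rose 2.60-fold, AT3G22490 2.06-fold, M10 1.56-fold and AT3G15670 1.45-fold. AT2G42560 was 1.82-fold lower, AT5G44310 1.72-fold lower and AT3G53040 1.45-fold lower. Over all tested probe sets 11.3% rose and 20.5% fell in this comparison, 31.9% in either direction. The members had been named in earlier results for this contrast, so their count supports nothing about LEA genes in general. Both directions occurred within the LEA_4 family, where AT3G15670 rose and the other members fell.

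M17 signal in reference seed was 3754, 4082 and 3149 on the 3 arrays. It was 9741, 9809 and 8924 in cool seed. Every cool array was above every reference array, a separation in that direction that 18.8% of all tested probe sets showed. The group means were 3662 ± 473 and 9491 ± 493 (SD, n = 3), and the log2 change was 1.38 (SE 0.13, limma adjusted p = 1.4e-05). The other wild-type group at 20 °C lay between them, with M17 signals of 5646, 5300 and 5088 in short-day seed. In ft-1 seed the M17 signals were 3289, 3845 and 3992, all within the range of reference seed.

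M10, the neighbouring AtM gene, gave signals of 6203, 7064 and 7103 in reference seed. In cool seed it gave 11767, 9829 and 10233, and again no cool array overlapped the reference arrays. Its log2 change was 0.64 (SE 0.12, limma adjusted p = 0.0018). Short-day seed (7042, 7482 and 7650) and ft-1 seed (6318, 7786 and 6963) overlapped reference seed. On each array M17 can be set against M10 as a log2 ratio, which no scaling by 1 factor per array can alter. That ratio was 0.74 ± 0.139 (SD, n = 3) higher in cool than in reference seed, and 0.43 ± 0.137 higher in short-day seed. The cool arrays ranged from 0.62 to 0.89 and the short-day arrays from 0.31 to 0.58, while the reference arrays spread from -0.28 to 0.17 around their own mean. The neighbours therefore changed by unequal amounts.

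AT3G22490, the SMP family member, had signals of 3845, 4124 and 3369 in reference seed. In cool seed they were 8487, 6728 and 8160, all above the reference arrays. The log2 change was 1.04 (SE 0.16, limma adjusted p = 0.00058). In short-day seed AT3G22490 gave 6214, 5899 and 5866, and the cool minus short-day change of 0.37 did not pass (limma adjusted p = 0.12). In ft-1 seed it gave 3756, 5894 and 4457, the widest spread of any group for this gene, with array 2 high.

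AT3G15670, of the LEA_4 family, had signals of 10767, 13055 and 12791 in reference seed. In cool seed they were 17818, 17582 and 17319, close together and above every other array in the study. The log2 change was 0.53 (SE 0.11, limma adjusted p = 0.004). Short-day seed gave 12025, 13187 and 13893 and ft-1 seed 10707, 12477 and 13268, both overlapping reference seed. This probe set ranked between 1 and 4 from the top of 22746 non-control probe sets on every array, so its rank had little room to move.

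AT2G42560 went the other way. Its signals were 5969, 6781 and 8379 in reference seed and 3417, 4986 and 3324 in cool seed. The groups did not overlap, as for 29.2% of tested probe sets in this direction, although cool array 2 stood nearer to reference seed. The log2 change was -0.86 (SE 0.22, limma adjusted p = 0.01). Short-day signals were 5982, 5939 and 6642, and ft-1 signals were 6807, 4183 and 8232, with ft-1 array 2 inside the cool range.

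AT5G44310 had signals of 5032, 5969 and 5458 in reference seed and 2566, 4009 and 3142 in cool seed. Its log2 change was -0.78 (SE 0.22, limma adjusted p = 0.017). The call was lost without reference array 2 (-0.72, adjusted p = 0.06), cool array 1 (-0.62, adjusted p = 0.083) or cool array 3 (-0.77, adjusted p = 0.053). Signals of 5462, 5239 and 3535 in short-day seed and of 5816, 3285 and 5255 in ft-1 seed each held 1 array that fell inside the cool range.

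AT3G53040 had signals of 5969, 6808 and 7662 in reference seed and 4411, 5517 and 4188 in cool seed. Its log2 change was -0.54 (SE 0.15, limma adjusted p = 0.015). That call was lost without reference array 3 (-0.45, adjusted p = 0.061), cool array 1 (-0.50, adjusted p = 0.058) or cool array 3 (-0.46, adjusted p = 0.069). Short-day signals were 6233, 6627 and 6030, and ft-1 signals were 7200, 5961 and 8353, none of them inside the cool range.

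**Figure D1:**
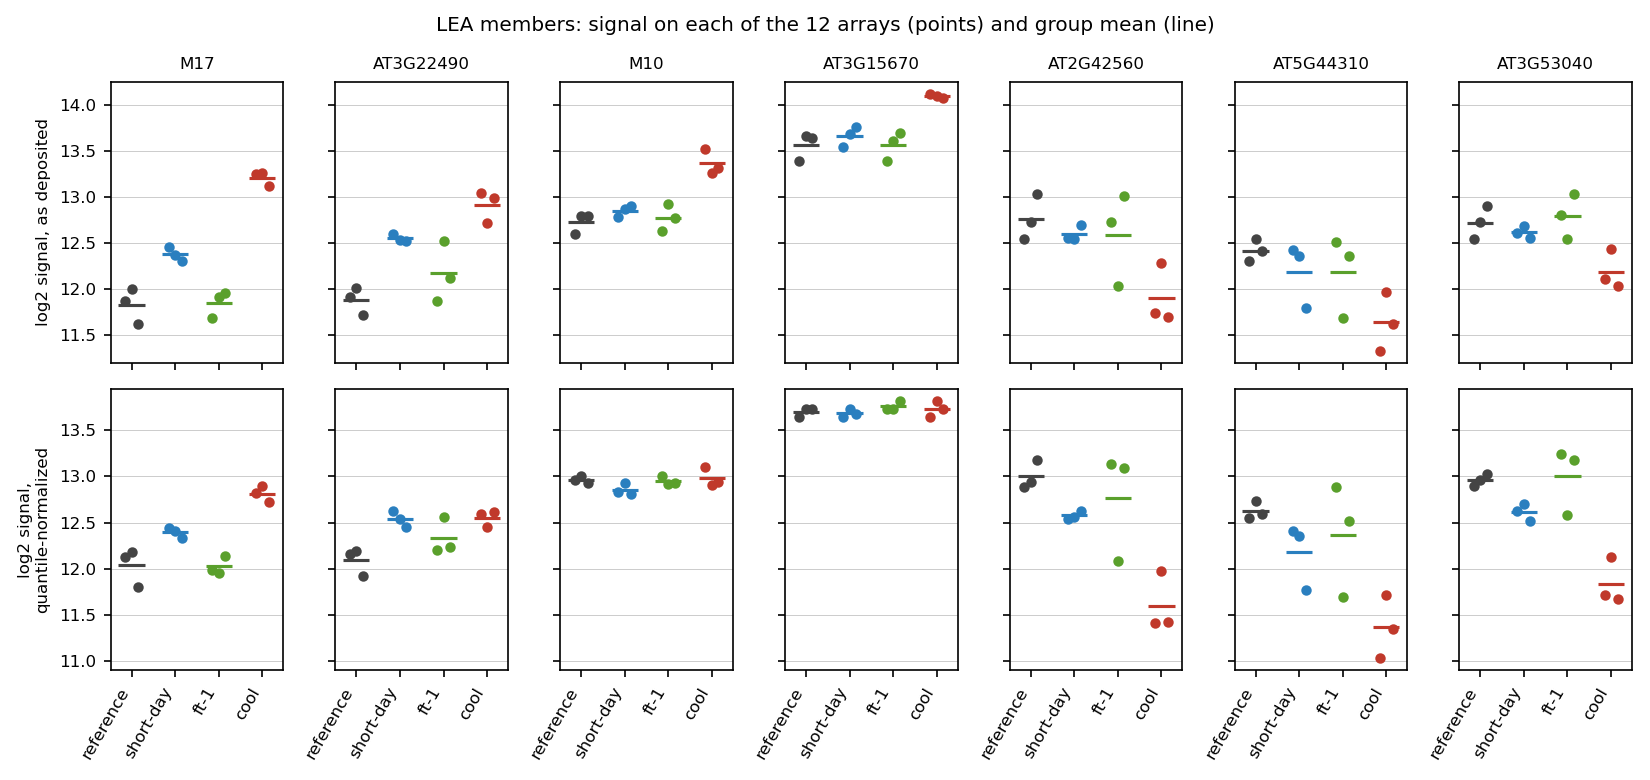
The log2 signal of each member (columns) on each of the 12 arrays is shown as a point with the group mean as a line, as deposited in the upper row and after quantile normalization in the lower row. In the upper row 4 members are higher and 3 lower in cool seed than in reference seed, and in the lower row M10 and AT3G15670 are level across the groups.

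All members lay near the top of the signal range, where the arrays of the groups differed as a whole. The 99.9th percentile of log2 signal was 0.65 higher on cool than on reference arrays and the 99th percentile 0.39 higher, while the 90th percentile differed by -0.06. Among the 115 probe sets with a mean log2 signal at or above that of the dimmest member (12.11), 88 rose and 4 fell in cool seed, or 76.5% and 3.48%. Their median change was 0.60, against -0.16 over all tested probe sets. Against these 115, M17 ranked 1 from the largest rise and AT3G22490 ranked 9. M10 ranked 47 and AT3G15670 ranked 70, nearer the middle of the 115, which are not equally bright. AT3G15670 had a mean log2 signal of 13.73. AT3G53040, AT5G44310 and AT2G42560 ranked 112, 114 and 115, so that 3 of the 4 probe sets that fell among the 115 were members. The members had been named for their changes in this contrast and the dimmest of them set the cut for the 115. These ranks and counts are therefore a description and support nothing further.

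Quantile normalization, which gives all 12 arrays the same distribution of signals, changed the members' results in cool seed unequally. On this scale 12.8% of tested probe sets rose and 15.3% fell. M17 stayed higher, by 0.78 (limma adjusted p = 0.00059), and AT3G22490 by 0.46 (adjusted p = 0.013). M10 differed by 0.02 (95% interval -0.17 to 0.21, adjusted p = 0.88) and AT3G15670 by 0.03 (interval -0.15 to 0.20, adjusted p = 0.84), so neither passed the test. For AT3G15670, whose rank was already 1 to 4 everywhere, quantile normalization can hardly return a change, whatever the transcript did.

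The 3 members that fell did so by more after quantile normalization. AT2G42560 changed by -1.40 (limma adjusted p = 9e-04), AT5G44310 by -1.25 (adjusted p = 0.0033) and AT3G53040 by -1.12 (adjusted p = 0.00045). In ranks from the top, AT2G42560 stood at 22 to 44 in reference seed and at 130 to 206 in cool seed, AT5G44310 at 59 to 77 and at 160 to 287, and AT3G53040 at 32 to 43 and at 115 to 166. M17 moved from ranks of 111 to 151 to ranks of 43 to 60. AT3G22490 moved from ranks of 110 to 136 to ranks of 71 to 86. M10 stayed between ranks 27 and 42 in both groups. The ranks of M10 and AT3G15670 overlapped between reference and cool seed, and those of the other members did not. The share of all tested probe sets without overlap in rank was not computed. For log2 signal as deposited that share was 18.8% for higher and 29.2% for lower signal in cool seed. The members had been named for this contrast, so the ranks are a description only.

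Scaling each array to the hybridisation controls, which are added after labelling, set the whole level of cool arrays lower, with 2.06% of tested probe sets rising and 50.6% falling. Then M17 was higher by 0.70 and passed the test, AT3G22490 differed by 0.36 (limma adjusted p = 0.14), and M10 and AT3G15670 had changes of -0.04 and -0.15 that did not pass. The 3 other members fell by 1.55 (AT2G42560), 1.47 (AT5G44310) and 1.22 (AT3G53040) on the log2 scale. With each array centred on the median of the tested probe sets, those 3 had changes of -0.51, -0.43 and -0.19, and none passed. With that centring 2690 of all tested probe sets rose and 1538 fell. M17 was above reference seed, and past the threshold, under every scaling tried.

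Poly-A control transcripts, spiked into the RNA before labelling, differed between the groups. Their mean log2 signal over 27 probe sets was 5.73 to 6.14 on reference arrays, 6.88 to 6.90 on short-day arrays and 7.40 to 7.98 on cool arrays. On ft-1 arrays it was 5.06, 7.17 and 5.47, with array 2 apart. With this value as a covariate, M17 was higher in cool seed by 1.23 (limma adjusted p = 0.0027) and no other member passed. Over all tested probe sets 1549 rises and 2798 falls became 193 and 171 with the covariate. AT2G42560 then had a change of -0.08 (95% interval -0.57 to 0.40), AT5G44310 of -0.08 (-0.62 to 0.47) and AT3G53040 of -0.17 (-0.59 to 0.25). Because cool and reference arrays do not overlap in the control signal, it and the growth condition cannot be told apart between these groups. The difference between 3' and 5' probe sets, a sign of RNA length, pointed different ways for the array's GAPDH control sets. It was 1.32 to 1.79 in cool and 0.26 to 0.77 in reference seed for one, and -0.07 to 0.16 and 0.28 to 0.44 for the other. For actin it was 3.58 to 4.15 in cool and 3.28 to 3.82 in reference seed, which overlap. Its part in the members' changes was not tested.

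**Figure D2:**
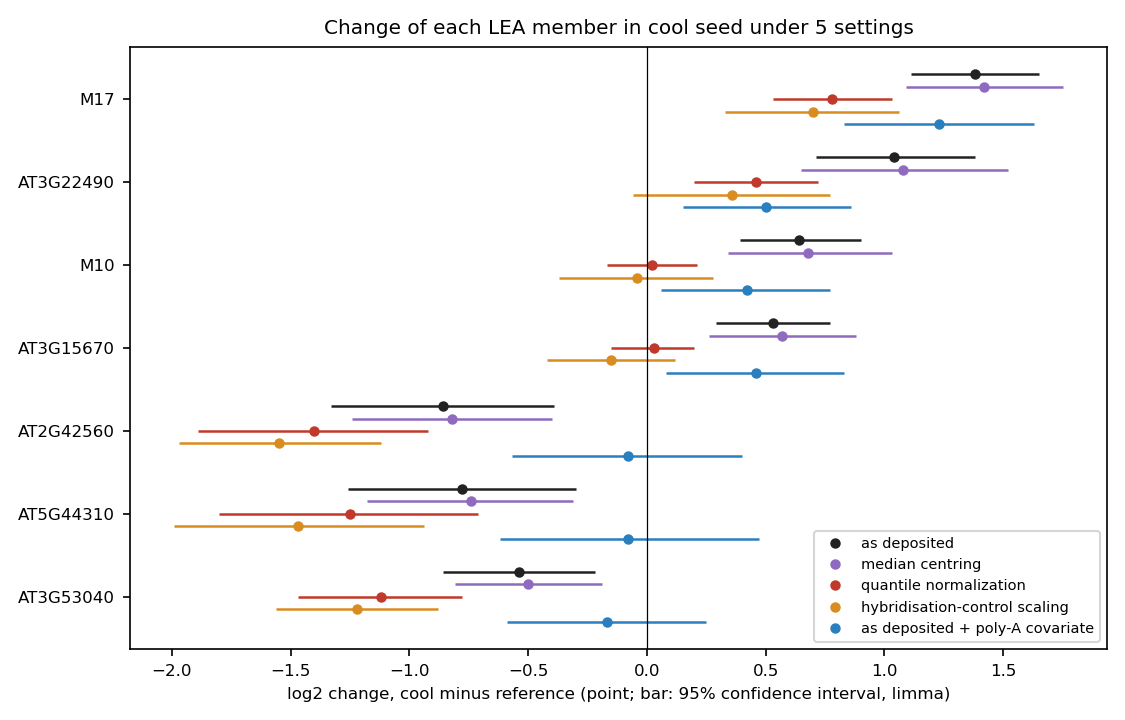
The log2 change of each member in cool minus reference seed (point) with its 95% confidence interval (bar) is drawn under 5 settings. The M17 interval lies above 0 under all 5, the M10 and AT3G15670 intervals include 0 after quantile normalization and hybridisation-control scaling, and the intervals of the 3 lower members include 0 with the poly-A covariate.

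Differences between members on the same array do not depend on a single scaling factor. M17 against AT2G42560 was 2.24 ± 0.287 (SD, n = 3) higher on the log2 scale in cool than in reference seed, and 2.18 ± 0.253 higher after quantile normalization. Within LEA_4, AT3G15670 against AT2G42560 was 1.39 ± 0.326 higher, and AT3G15670 against AT3G53040 was 1.07 ± 0.208 higher. In both ratios the lowest cool array (1.02 and 0.83) was above the highest reference array (0.14 and 0.10). By contrast, M10 against AT3G15670 shifted by 0.11 ± 0.122, within the spread between arrays, and AT2G42560 against AT5G44310 by -0.08 ± 0.17. The members were named for their changes in this contrast and a ratio cannot respond to 1 factor per array, so these ratios describe the arrays and support nothing further. The poly-A covariate is not such a factor, and with it AT3G15670 and AT2G42560 had changes of 0.46 and -0.08, neither of which passed.

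Measured against the mean of the 7 on each array, short-day seed lay on the same side of reference seed as cool seed for M17, AT3G22490, AT2G42560, AT5G44310 and AT3G53040. M17 was 0.42 above its reference mean in short-day seed and 1.18 above it in cool seed. AT3G22490 was at 0.54 and 0.84, AT2G42560 at -0.31 and -1.06, AT5G44310 at -0.37 and -0.98 and AT3G53040 at -0.24 and -0.74. These comparisons share the reference arrays, and each member's value is relative to the others, so the likeness of direction is a description only.

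**Figure D3:**
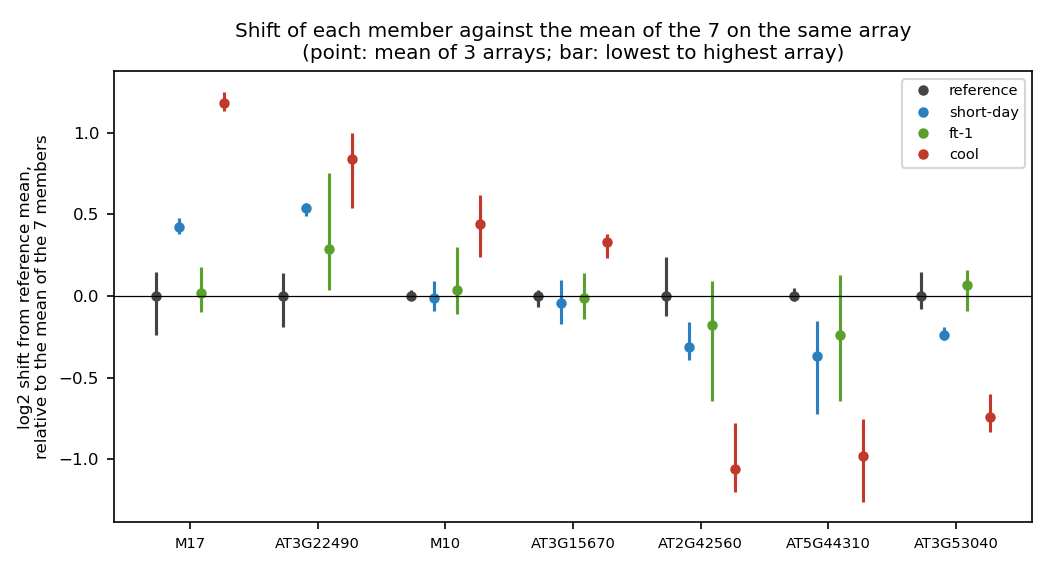
Each member's log2 signal, relative to the mean of the 7 members on the same array, is drawn as the shift from its mean in reference seed (point, mean of 3 arrays, with a bar from the lowest to the highest array). M17 reaches 1.18 and AT2G42560 -1.06 in cool seed, and the short-day values of M17 and AT3G22490 lie above all of their reference values.

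Against reference seed, short-day seed showed higher transcripts of M17 and AT3G22490. M17 was 1.47-fold higher (log2 change 0.55, SE 0.13, limma adjusted p = 0.041) and AT3G22490 was 1.59-fold higher (0.67, SE 0.16, adjusted p = 0.044). In this comparison 0.725% of tested probe sets rose and 1.78% changed in either direction. Both genes were higher on all 3 short-day arrays than on any reference array, as were 12.5% of tested probe sets. The other members did not pass, with changes from -0.23 for AT5G44310 to 0.12 for M10. Among the 115 bright probe sets AT3G22490 ranked 2 and M17 ranked 7 from the largest rise, with a median change of 0.23 over the 115.

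The short-day calls sat close to the threshold. After quantile normalization, where 0.901% of tested probe sets rose, M17 had a change of 0.36 (limma adjusted p = 0.14) and AT3G22490 of 0.44 (adjusted p = 0.079). Both calls were also lost when any 1 reference array, any 1 short-day array, cool array 1 or cool array 3 was left out, and that of AT3G22490 without ft-1 array 3. The adjusted p was then 0.063 to 0.19 for M17 and 0.053 to 0.18 for AT3G22490, while the changes themselves stayed between 0.45 and 0.63 and between 0.59 and 0.74 over all arrays left out.

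No member passed the limma test between ft-1 and reference seed, where 0.388% of tested probe sets changed in either direction, and 0 members had an unadjusted p under 0.05. Changes ran from -0.24 for AT5G44310 to 0.30 for AT3G22490. The 95% intervals were -0.25 to 0.30 for M17, -0.21 to 0.30 for M10 and -0.25 to 0.24 for AT3G15670, which leave room for differences of up to about 0.3. The intervals were wider for AT3G22490 (-0.04 to 0.63), AT3G53040 (-0.25 to 0.39), AT2G42560 (-0.65 to 0.29) and AT5G44310 (-0.71 to 0.24). ft-1 array 2 held the lowest ft-1 signals of AT2G42560, AT5G44310 and AT3G53040, the highest ft-1 signal of AT3G22490, and the highest poly-A control signal of that group. With the control signal as a covariate no member passed in ft-1 against reference seed. AT3G22490 then had a change of 0.33 (95% interval 0.10 to 0.55, limma adjusted p = 0.091). AT2G42560, AT5G44310 and AT3G53040 had -0.22, -0.28 and 0.05. Over all tested probe sets 521 passed in that fit, beside 53 without the covariate. What part the control signal had in the signals of array 2 was not tested beyond this fit.

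Between ft-1 and short-day seed, 0 members passed the limma test and 2 had an unadjusted p under 0.05, with 0.176% of tested probe sets changed in either direction. M17 had a change of -0.53 (adjusted p = 0.16) with no overlap between the groups, which 5.76% of tested probe sets showed in that direction. AT3G22490 had a change of -0.37 (adjusted p = 0.69). Without ft-1 array 2 both passed, with -0.56 for M17 (adjusted p = 0.032) and -0.55 for AT3G22490 (adjusted p = 0.036). Over all tested probe sets 402 rose and 231 fell in that fit, beside 20 and 4 with all arrays.

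Cool seed was also compared with short-day seed, where 7.26% of tested probe sets rose and 10.2% fell. M17 was 1.78-fold higher in cool seed (log2 change 0.83, limma adjusted p = 0.00094), so its cool and short-day levels differed from each other as well as from reference seed. M10 rose by 0.52 (adjusted p = 0.0098) and AT3G15670 by 0.43 (adjusted p = 0.019). AT2G42560 fell by 0.69 on the log2 scale (adjusted p = 0.045). AT3G22490 (0.37, adjusted p = 0.12), AT3G53040 (-0.43, adjusted p = 0.06) and AT5G44310 (-0.55, adjusted p = 0.10) did not pass.

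After quantile normalization, cool against short-day seed gave 1 member higher and 3 lower, beside 7.38% and 8.16% of tested probe sets. M17 was higher by 0.42 (limma adjusted p = 0.026), while AT2G42560 (-0.97), AT3G53040 (-0.77) and AT5G44310 (-0.80) all passed. Single arrays decided several of the deposited-scale calls. M10 did not pass without cool array 1 (0.44, adjusted p = 0.054). AT3G15670 did not pass without cool array 1 (0.42), cool array 3 (0.44) or short-day array 1 (0.38). AT2G42560 did not pass without reference array 1 or 2, cool array 1 or 3, or any short-day array, with changes from -0.71 to -0.58. AT3G53040 and AT5G44310 passed without cool array 2 (-0.55 and -0.71) or ft-1 array 2 (-0.43 and -0.55), and AT3G22490 without ft-1 array 2 (0.37). Over all tested probe sets 3005 passed without cool array 2 and 3774 without ft-1 array 2, beside 2384 with all arrays.

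Against ft-1 seed, where 9.36% of tested probe sets rose and 14.6% fell, cool seed showed higher M17 (1.36, limma adjusted p = 1.9e-05), AT3G22490 (0.75, adjusted p = 0.0047), M10 (0.60, adjusted p = 0.0033) and AT3G15670 (0.54, adjusted p = 0.0048). AT3G53040 fell by 0.60 on the log2 scale (adjusted p = 0.011) and AT2G42560 by 0.68 (adjusted p = 0.037). AT5G44310 did not pass (-0.54, adjusted p = 0.088), but did so without ft-1 array 2 (-0.80, adjusted p = 0.0052) or cool array 2 (-0.71, adjusted p = 0.041). Over all tested probe sets 5123 passed without ft-1 array 2 and 3704 without cool array 2, beside 3271 with all arrays. AT2G42560 was lost without cool array 1 or 3, ft-1 array 1 or 3, reference array 2, or short-day array 1 or 2, at -0.68 to -0.47, and AT3G53040 without cool array 3 (-0.53) or ft-1 array 3 (-0.49). After quantile normalization, where 9.83% of tested probe sets rose and 11.7% fell, M17 was the member that rose (0.79, adjusted p = 0.00055), and AT2G42560 (-1.16), AT3G53040 (-1.16) and AT5G44310 (-0.99) were lower.

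Ordered by mean log2 signal, the groups ran reference (11.83), ft-1 (11.85), short-day (12.38) and cool (13.21) for M17, and reference (11.88), ft-1 (12.17), short-day (12.55) and cool (12.92) for AT3G22490. For M17 the step from short-day to cool seed passed the test, and those from reference to ft-1 seed and from ft-1 to short-day seed did not. For AT3G22490 no pair of neighbours in the order passed the test. M10 ran reference (12.73), ft-1 (12.77), short-day (12.85) and cool (13.37), and AT3G15670 ft-1 (13.56), reference (13.57), short-day (13.67) and cool (14.10). For both, the step from short-day to cool seed passed and the steps before it did not. AT2G42560, AT5G44310 and AT3G53040 were lowest in cool seed, at 11.91, 11.64 and 12.19, while their other groups lay within 12.59 to 12.77, 12.18 to 12.42 and 12.62 to 12.79 and no pair of those groups passed the test.

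Across the 12 arrays AT2G42560, AT5G44310 and AT3G53040 were correlated with each other, both as deposited and after quantile normalization. M17, M10, AT3G22490 and AT3G15670 were correlated with each other as deposited. After quantile normalization their pairs other than M17 with AT3G22490 had correlations of -0.21 to 0.11. AT2G42560 and AT3G53040 had a Pearson correlation of 0.94, with 0.93 after each group's mean was removed and 0.97 after quantile normalization. AT2G42560 with AT5G44310 gave 0.83, and AT5G44310 with AT3G53040 gave 0.82. M17 with AT3G22490 gave 0.90, with 0.54 within groups and 0.69 after quantile normalization. M10 with AT3G15670 gave 0.95 as deposited but -0.02 after quantile normalization, and M17 with M10 gave 0.90 and 0.11. AT3G22490 ran against AT2G42560 with -0.83, and with -0.82 within groups. These values are descriptions over arrays that share 4 group means and each array's overall scale.

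The probe sets most like each member, outside the LEA list and among 7557 compared over the 12 arrays, differed between the members. For M17 they were LHCB4.2, which encodes a light-harvesting chlorophyll-binding protein (Pearson r = 0.97), and BGLU19, a beta-glucosidase family gene (0.967). For AT3G22490 they were UBC28, a ubiquitin-conjugating enzyme gene (0.975), and AT5G56100 (0.973). M10 was most like AT5G01300 (0.974) and AT5G64590 (0.964), and AT3G15670 most like AT5G07330 (0.95) and AT1G04560 (0.949). After quantile normalization those 4 correlations were between 0.24 and 0.362, and that of AT5G56100 with AT3G22490 was 0.362. LHCB4.2 and BGLU19 with M17 were then at 0.924 and 0.857, and UBC28 with AT3G22490 at 0.893. For the members that fell they were AT1G76280 (0.985) and AT5G55100 (0.975) for AT2G42560, AT2G18090 (0.963) and AT1G67420 (0.957) for AT5G44310, and AT5G53800 (0.967) and AT3G58600 (0.961) for AT3G53040. These 6 correlations stayed between 0.809 and 0.963 after quantile normalization.

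The members were set beside a list of 50 LEA genes of Arabidopsis, 34 of which had a single-gene probe set and 28 of which were tested. In cool against reference seed 15 of the 28 rose and 4 fell, with a median change of 0.50, beside 11.3% and 20.5% of all tested probe sets. With 1 array left out the list had 8 to 18 rises and 1 to 4 falls. Without cool array 1 there were 8 and 1, without cool array 3 there were 10 and 1, and without reference array 2 or 3 there were 12 and 2. Over all tested probe sets 1549 rises and 2798 falls became 929 and 1667 without cool array 1 and 980 and 1689 without cool array 3. They became 1176 and 1960 without reference array 2 and 1298 and 2096 without reference array 3. Among the 21 that are not members 11 rose and 1 fell, with a median of 0.47, beside the median of 0.60 over the 115 bright probe sets. Outside the members the LEA_4 gene AT3G02480 rose by 1.33 (limma adjusted p = 8.4e-05), the LEA_3 gene DI21 by 1.04 (adjusted p = 0.015) and the dehydrin gene AT1G54410 by 1.31 (adjusted p = 0.025). AT1G54410 was dim, with signals of 17 ± 5 in reference and 41 ± 9 in cool seed (SD, n = 3). LTI30, also a dehydrin gene, rose by 0.81 (adjusted p = 0.00073). AT2G18340, also LEA_4, was the non-member that fell, by 0.54 on the log2 scale (adjusted p = 0.046).

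By family, both AtM genes rose, as did 4 of 5 tested dehydrins (including the dim AT1G54410), 2 of 3 LEA_1 genes and both PvLEA18 genes. Over all tested probe sets 11.3% rose, and over the 115 bright ones 76.5% did, so these counts are a description and single out no family. Of the 12 tested LEA_4 genes 3 rose and 4 fell, so that all 4 falls in the list lay in LEA_4, and 3 of them were the members AT2G42560, AT5G44310 and AT3G53040, which earlier results had named for this contrast. The remaining rises were those of AT4G21020 (0.75), AT4G39130 (0.86), AtLEA4-1 (0.53), LEA18 (0.47), the dehydrin gene annotated as LEA (0.43), AT2G23110 (0.41) and AT2G23120 (0.61). AT1G72100, AT3G17520, AT4G36600, LEA4-5 and AT2G46140 had changes of 0.31 to 0.43 that did not pass. COR15B (0.00), AT2G44060 (-0.39), AT4G13230 (1.09) and AT4G38410 (1.97) did not pass either, and their mean log2 signals in the groups were between 2.31 and 6.05.

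After quantile normalization the list had 5 rises and 4 falls, with a median of -0.01, beside 12.8% and 15.3% of all tested probe sets. The rises were M17, AT3G22490, AT3G02480 (0.71), DI21 (1.01) and the dim AT1G54410 (1.56). The falls were AT2G42560, AT5G44310, AT3G53040 and AT2G18340 (-0.84). Under hybridisation-control scaling there were 2 rises and 6 falls, with a median of -0.18, beside 2.06% and 50.6% of all tested probe sets. The direction of the LEA list as a whole therefore depended on the scaling.

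**Figure D4:**
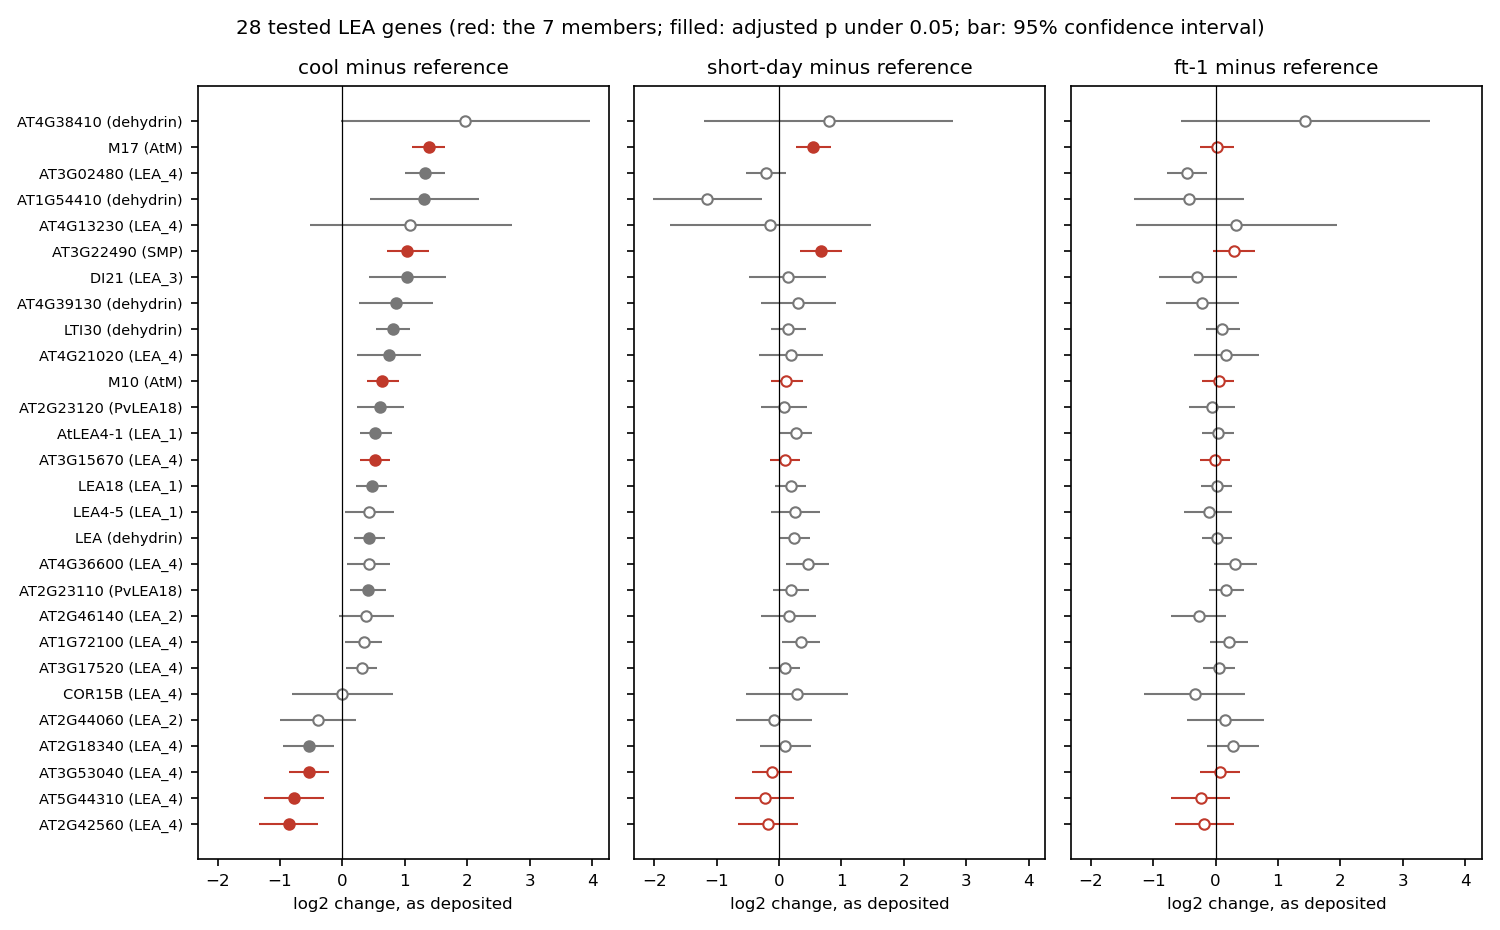
The log2 change as deposited (point) and its 95% confidence interval (bar) are drawn for the 28 tested LEA genes, with their families, in the 3 comparisons with reference seed. Filled points passed the test, and the 7 members are red. The cool panel has 15 filled points above 0 and 4 below it, M17 and AT3G22490 are the filled points of the short-day panel, and the ft-1 panel has none.

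In short-day seed M17 and AT3G22490 were the 2 genes of the list that rose, and 0 fell. By limma 0 of the 28 changed in ft-1 seed, and 1 had an unadjusted p under 0.05: AT3G02480, at -0.46. In cool against short-day seed 8 of the 28 rose and 2 fell, beside 7.26% and 10.2% of all tested probe sets. With 1 array left out these became 4 to 10 rises and 0 to 4 falls. There were 4 and 0 without cool array 1 and 5 and 0 without cool array 3 or short-day array 1. Without ft-1 array 2 there were 10 and 4. Over all tested probe sets 991 rises and 1393 falls became 494 and 569 without cool array 1 and 500 and 613 without cool array 3. They became 594 and 618 without short-day array 1 and 1410 and 2364 without ft-1 array 2. In the list the falls were also 0 without short-day array 2 or 3, 1 without reference array 1 or 2, and 4 without cool array 2. In the same order, falls over all tested probe sets were 825, 613, 1148, 1165 and 1932. In cool against ft-1 seed 15 rose and 3 fell, beside 9.36% and 14.6%. With 1 array left out these became 9 to 16 rises and 1 to 4 falls. There were 9 and 2 without ft-1 array 1, 10 and 1 without cool array 3, and 11 and 1 without ft-1 array 3. Over all tested probe sets 1277 rises and 1994 falls became 774 and 885, 769 and 1058, and 809 and 920 in the same order. In the list the falls were 2 without cool array 1, reference array 2, or short-day array 1 or 2. Falls over all tested probe sets were then 1042, 1748, 1681 and 1799, in the same order. EEL, which encodes a bZIP transcription factor that binds the promoter of a LEA gene in Arabidopsis seed, was the tested gene of 9 listed maturation regulators. Its changes were -0.15 in cool, -0.25 in short-day and -0.48 in ft-1 seed, and none passed.

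The labelled tissue was checked against marker genes. Out of 20 listed storage protein and oleosin genes, 8 had named probe sets. Their summed signal was 30756 to 38562 in reference, 31948 to 39585 in ft-1, 38769 to 43935 in short-day and 52212 to 55084 in cool seed. It was highest in cool seed, as were M17, M10, AT3G22490 and AT3G15670. All these signals are as deposited, a scale on which the 99.9th percentile was also 0.65 higher on cool than on reference arrays. What part that shift had in the sums was not tested. The 7 named probe sets out of 39 listed genes of green tissue summed to 825 to 1334 in reference and 1084 to 1230 in cool seed, which overlap. Their sums were 643 to 894 in ft-1 and 845 to 983 in short-day seed, both below every cool array. The 1 named probe set out of 4 listed seed coat genes was near 0 throughout, at 1 to 22. What part the mix of seed tissues had in the members' changes was not tested.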

How the data were processed

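RNA of mature seed was extracted with a Qiagen RNeasy kit and labelled with the Affymetrix 3' IVT Express protocol, per the labels' protocols. The deposited values are linear MAS5 signal intensities made by the authors with GCOS, per the submitters' processing notes, with no version or scaling target stated. Their 2% trimmed mean is 100 on each of the 12 arrays. Array data hold no read depth, and 3 arrays a group limit the precision.

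Intensities were taken to log2 with no offset. The 64 control probe sets and those with a mean log2 signal under the 40th percentile (2.88) were left out, leaving 13648. All 6 pairwise group comparisons were fitted together with limma 3.58.1 in R 4.3.3 (intensity trend, Benjamini-Hochberg adjustment over 13648), after a test on simulated data. Probe sets were named where the platform annotation gives 1 gene (13513). With 3 arrays against 3 an exact permutation test cannot go below 0.10, so none was used. Named genes are the members, the other tested genes of the LEA list, the tested maturation regulators and, for each member, the 2 most correlated probe sets.

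The members, lists and tests were chosen with earlier results of these data known. Replicate numbers did not pair the samples: 2 of 18 correlations of same-numbered deviations were over 0.1 (range -0.23 to 0.14). Alternatives were other scalings (quantile, median and hybridisation-control), the poly-A signal as a covariate, other filters, an offset of 16, no intensity trend, array weights, single pairs of groups, a replicate block and each array left out.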

Additional observations from a re-analysis of the deposited data

How the results depend on the processing

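Settings changed one at a time moved the members' counts as follows. In cool against reference seed, 4 rises became 2 after quantile normalization and 1 under hybridisation-control scaling or with the poly-A covariate. The 3 falls became 0 with the poly-A covariate, 0 with centring on the tested probe sets' median and 1 without the variance trend. With no filter there were 3 rises and 2 falls, as AT3G15670 (limma adjusted p = 0.076) and AT3G53040 (adjusted p = 0.071) lost their calls. Over all tested probe sets 1549 rises and 2798 falls became 1741 and 2094 after quantile normalization and 1347 and 2456 without the variance trend. With no filter they became 1458 and 2425 of 22746. M10 and AT3G15670 turned to -0.04 and -0.15 under hybridisation-control scaling. In short-day against reference seed the 2 rises became 1 with median centring. They became 0 with quantile normalization, hybridisation-control scaling, tested-median centring, the poly-A covariate, no filter or no variance trend. Over all tested probe sets 99 rises became 125 with median centring and, in the order just given, 123, 30, 112, 38, 83 and 36. In cool against short-day seed 3 rises became 1 with quantile normalization, median centring, no filter or no variance trend. They became 0 under hybridisation-control scaling, 2 with the poly-A covariate, and 4 with array weights or only the 2 groups compared. Over all tested probe sets 991 rises became, in the same order, 1007, 677, 830, 763, 383, 783, 1749 and 1318. The 1 fall there became 3 under quantile normalization, median centring, hybridisation-control scaling or array weights, 2 with only the 2 groups compared, and 0 with the poly-A covariate, no filter, no variance trend or tested-median centring. In cool against ft-1 seed 4 rises became 1 under quantile normalization, hybridisation-control scaling or the poly-A covariate, and 2 falls became 0 with the poly-A covariate, no filter, no variance trend, only the 2 groups compared or tested-median centring. There were 3 falls there under quantile normalization, median centring, hybridisation-control scaling or array weights, as AT5G44310 passed, and 3 rises with no filter. In that comparison AT3G15670 turned to -0.03 after quantile normalization, M10 and AT3G15670 to -0.02 and -0.08 under hybridisation-control scaling, and AT2G42560 to 0.14 with the poly-A covariate. In ft-1 against short-day seed array weights gave 2 falls (M17 -0.64, AT3G22490 -0.60). Over all tested probe sets array weights took the calls in that comparison from 24 to 2295, with 987 falls. They raised the calls in every other comparison too, as from 2384 to 4955 in cool against short-day seed. The cause of these shifts was not tested.

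Tested-median centring and a poly-A covariate without the Trpn probe sets were chosen after seeing the data. The latter gave 1 rise and 0 falls for cool against reference and against ft-1 seed (AT2G42560 at 0.22). It gave 0 rises for short-day seed and 2 rises and 0 falls for cool against short-day seed. In ft-1 seed it gave 1 rise (AT3G22490, 0.38, limma adjusted p = 0.038). Over all tested probe sets ft-1 against reference seed then had 404 rises and 654 falls, beside 34 and 19 as deposited. Cool against reference seed had 224 and 199, and cool against ft-1 seed 395 and 329. Cool against short-day seed had 800 and 1025, and short-day against reference seed 47 rises.

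With a replicate block, which the numbers do not call for, the short-day rises of M17 (0.55, limma adjusted p = 0.077) and AT3G22490 (0.67, adjusted p = 0.084) became 0 calls, and so did the fall of AT2G42560 in cool against short-day seed (-0.69, adjusted p = 0.061). It changed no other call of a member.

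With each array left out in turn, the members that rose in cool against reference seed stayed at 4 and those that fell ranged from 1 to 3. Over all tested probe sets the rises then ranged from 929 to 1903 and the falls from 1667 to 3437. Rises of members in short-day seed ranged from 0 to 2, and those of all tested probe sets from 17 to 470. In cool against short-day seed members' rises ranged from 1 to 4 and falls from 0 to 3, beside 494 to 1410 and 569 to 2364 over all. In cool against ft-1 seed members' rises stayed at 4 and falls ranged from 0 to 3, beside 769 to 1896 and 885 to 3227. Falls of members in ft-1 against short-day seed ranged from 0 to 2, beside 0 to 231. Over all tested probe sets, cool against reference seed gave 1549 rises and 2798 falls as deposited, 281 and 6902 under hybridisation-control scaling, 2690 and 1538 with tested-median centring, and 193 and 171 with the poly-A covariate. Cool against short-day seed gave 991 and 1393 as deposited, 383 and 3859 under hybridisation-control scaling, and 783 and 984 with the poly-A covariate. In the same order, cool against ft-1 seed gave 1277 and 1994, 308 and 6148, and 385 and 328. For short-day against reference seed 99 rises became 30 under hybridisation-control scaling, 38 with the poly-A covariate and 36 without the variance trend. The 60th percentile filter and the offset of 16 changed no call of a member.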
